A study of Mus musculus with 8 samples.

Results

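The EGF receptor family and its ligands were followed across mouse embryonic fibroblasts, neural precursor cells and embryonic stem cells. The members were chosen by gene name: the receptor genes Egfr, Erbb2, Erbb3 and Erbb4, the EGF receptor ligand genes Hbegf, Areg, Ereg, Tgfa and Btc, and the neuregulin gene Nrg1. Each probe set that the array's annotation assigns to a single gene, that gene being a member, was used. Of the 10 listed genes 9 were measured, by 20 of the 34945 probe sets with a single gene, and these 9 stand among 18193 genes in all. Areg was not analysed here.

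RNA was hybridised to a whole-genome oligonucleotide array, and every group is labelled wild type. Primary embryonic fibroblasts (MEF, 2 arrays) were grown in medium with serum. Neural precursor cells (NPC, 3 arrays) were derived from ES cells through embryoid bodies and selection in ITSFn medium, then kept in FGF2 and a factor that the labels spell EGF2 and are the group whose labels name added mitogens. The V6.5 line gave the ES cells (3 arrays), grown with serum and leukemia-inhibiting factor on irradiated MEF feeders and then passaged on gelatin without feeders. The labels give neither the age of the embryos behind the MEF nor whether separate cultures lay behind the arrays of a group. The p-values therefore reflect the spread among these arrays alone, and that spread may be technical.

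The EGF receptor is a tyrosine kinase of the cell surface that dimerises, with itself or with a relative, when a ligand binds. ErbB2 has no known soluble ligand and serves as a partner of the others, ErbB3 has an impaired kinase and signals through its partners, and ErbB3 and ErbB4 bind neuregulins. The ligands are made as membrane-anchored precursors that ADAM proteases cut free, and the receptors pass their signal to the Ras-ERK and PI3 kinase pathways. In culture, EGF and FGF2 keep neural precursors dividing, and in neural tissue neuregulin-ErbB signals are known for their part in glia and Schwann cells.

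The deposited intensities were not on a common scale, with array medians from 19.1 to 31.5 and the MEF arrays brightest. After quantile normalization, every level below is log2(intensity + 16), a scale on which differences of dim genes are understated. Each array correlated at 0.970 or more with the others of its group and at 0.863 at most with those of other groups. NPC 1 was the array that stood apart within its group. Summed over each list, markers bore out the labels. Col1a1, Col1a2, Thy1 and Twist1 had a summed normalized intensity of 20000 to 20300 on MEF arrays. It was 89.4 to 218 on NPC arrays and 214 to 231 on ES arrays. Pou5f1, Nanog and Zfp42 together summed to 15.5 to 28.3 on MEF arrays, 10.1 to 20.9 on NPC arrays and 9850 to 10400 on ES arrays. Nes, Sox2, Fabp7 and Olig2 summed to 482 to 492 on MEF arrays and 10800 to 16800 on NPC arrays. On ES arrays they summed to 4080 to 4730, Sox2 being a gene of ES cells too. Single markers were not all restricted to their group. Twist1 was called higher in NPC than in ES cells (1.83). Nes was at 8.67 in MEF, 9.70 in NPC and 5.71 in ES cells, and Olig2 at 7.78 in ES cells.

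The cell types differed in which receptors and ligands they expressed. By group means, NPC had the highest Egfr and the lowest Hbegf, Erbb3 and Ereg. MEF had an intermediate Egfr together with the highest Hbegf, Ereg, Nrg1 and Erbb2. ES cells had the highest Erbb3 and the lowest Egfr. A gene was called at a limma adjusted p under 0.05 over all genes where the log2 difference was 1 or more in size.

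Between NPC and ES cells, 3 of the 9 members were called, 1 higher (Egfr) and 2 lower (Erbb3 and Hbegf) in NPC, where 22.9% of all genes were called, 10.0% higher and 12.9% lower. Between MEF and ES cells, 6 of 9 were called, 5 higher (Egfr, Erbb2, Hbegf, Ereg and Nrg1) and 1 lower (Erbb3) in MEF, against 25.0% of all genes, 12.2% higher and 12.8% lower. Between MEF and NPC, 4 of 9 were called, 3 higher (Hbegf, Ereg and Nrg1) and 1 lower (Egfr) in MEF, against 18.5% of all genes, 10.5% higher and 7.95% lower. The median member difference was 0.04 for NPC minus ES, 1.02 for MEF minus ES and 0.73 for MEF minus NPC, and over all genes it was -0.05, -0.04 and -0.01. Each pair of these comparisons shares a group of arrays, so the counts are not independent of each other. A level of RNA in a culture does not tell fewer expressing cells from less RNA per cell.

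**Figure D1:**
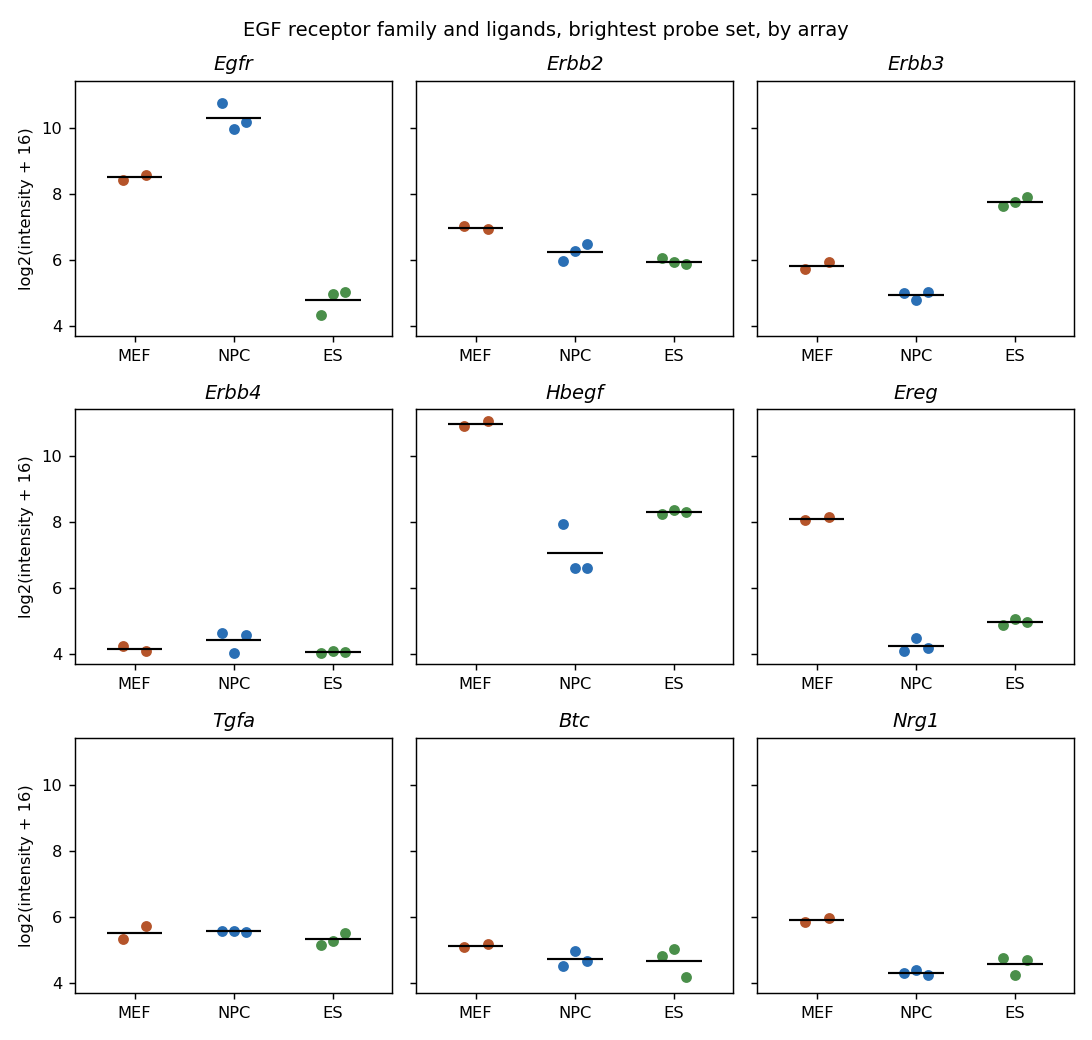
The log2(intensity + 16) of each measured member (brightest probe set, quantile normalized) on the 2 MEF, 3 NPC and 3 ES arrays, each point an array and each line a group mean. Egfr runs from 4.31 to 5.03 on ES arrays and from 9.97 to 10.76 on NPC arrays, and Hbegf is at 10.92 and 11.07 on the MEF arrays.

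**Figure D2:**
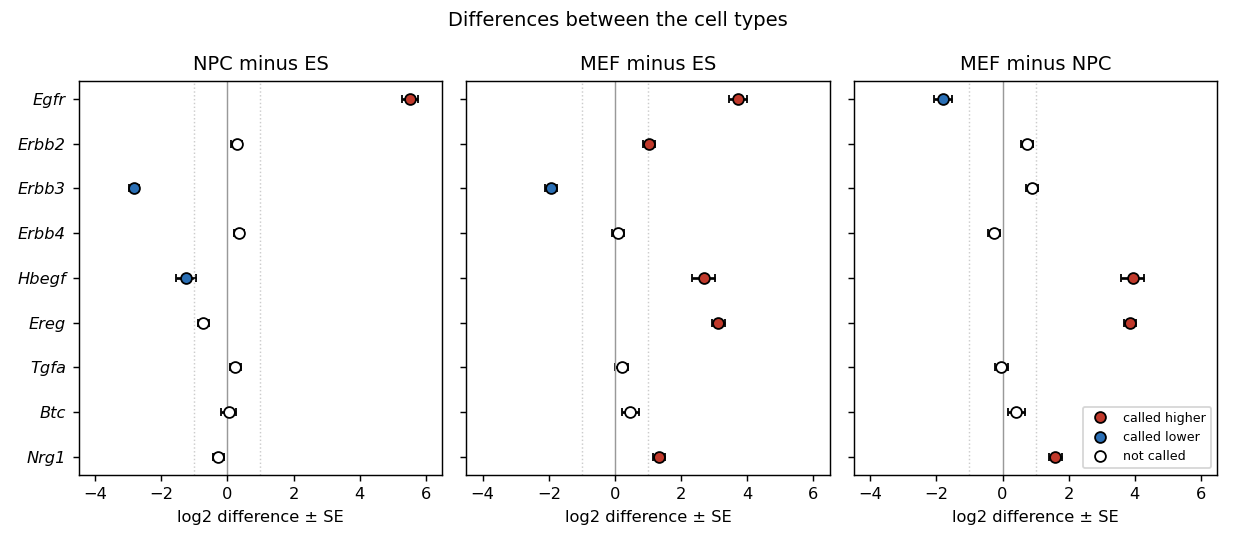
The log2 difference of each member between groups of arrays, with its standard error, filled where it was called (limma adjusted p under 0.05 and a difference of 1 or more in size, the dotted lines). Egfr is highest in NPC minus ES at 5.53, and Hbegf and Ereg are highest in MEF minus NPC at 3.94 and 3.86.

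Egfr encodes the EGF receptor itself. Its brightest probe set was at 8.43 and 8.58 on the MEF arrays, 10.76, 9.97 and 10.17 on the NPC arrays, and 4.31, 4.97 and 5.03 on the ES arrays. The group means were 8.50 ± 0.11 in MEF, 10.30 ± 0.41 in NPC and 4.77 ± 0.40 in ES cells (SD). No array of a group overlapped with another group, and the order was NPC, MEF, ES, with a gap at each step. Egfr was 46.2-fold higher in NPC than in ES cells (log2 difference 5.53, SE 0.242, limma adjusted p = 1.97e-07) and 13.3-fold higher in MEF than in ES cells (3.73, SE 0.271, limma adjusted p = 4.63e-06). It was 3.47-fold lower in MEF than in NPC (-1.80, SE 0.271, limma adjusted p = 0.000665). That last call ended at the deposited scaling (-0.88), with the mean of the probe sets (-0.61) and with a pseudocount of 1 (-0.83), where another probe set, 1460420_a_at, became the brightest.

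Egfr had 7 probe sets, and they fell into 2 kinds. For 1435888_at, 1424932_at, 1451530_at and 1460420_a_at, both MEF and NPC were called higher than ES cells. The NPC minus ES differences were 5.53, 4.60, 2.50 and 2.14, and the MEF minus ES differences 3.73, 3.24, 2.27 and 1.36. The other 3, 1432647_at, 1454313_at and 1457563_at, had group means from 4.13 to 5.37 in every cell type and were called in no comparison (NPC minus ES limma adjusted p = 0.851, 0.805 and 0.342).

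The responding probe sets all had a lower mean in MEF than in NPC, but not all were called. MEF was called lower than NPC by 1435888_at (-1.80) and 1424932_at (-1.36), but not by 1460420_a_at (-0.78) or 1451530_at (-0.23, limma adjusted p = 0.512), for which 7.10 and 7.02 on the MEF arrays fell inside the NPC range of 6.93 to 7.63. In ES cells 1460420_a_at stood at 6.17, 6.18 and 6.64, with deposited intensities of 56.2, 50.4 and 60.9. The brightest probe set had intensities of 3.7, 14.0 and 14.4 on the same ES arrays. Over the whole family, 6 of 20 probe sets were called for NPC minus ES, 10 for MEF minus ES and 6 for MEF minus NPC, where 20.1%, 22.3% and 17.5% of all probe sets with a single gene were called.

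**Figure D3:**
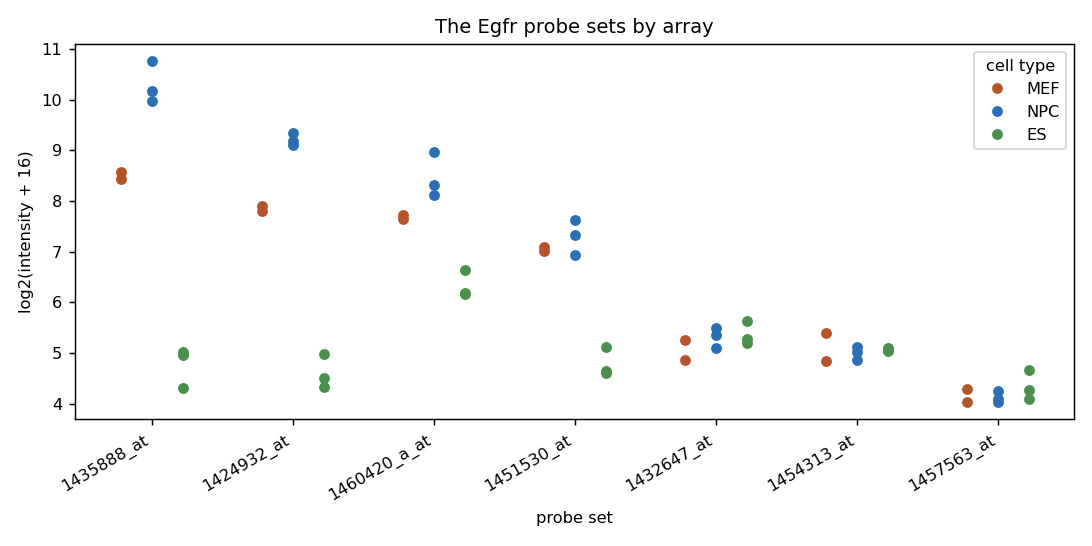
The log2(intensity + 16) of the 7 Egfr probe sets on each array, ordered by their NPC mean. In the 4 probe sets on the left the ES arrays lie below the MEF and NPC arrays, and the 3 on the right have group means between 4.13 and 5.37 in all groups.

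Erbb2 encodes the shared partner receptor and had a single probe set. It was at 7.01 and 6.93 on the MEF arrays, 5.97, 6.27 and 6.49 on the NPC arrays, and 6.04, 5.93 and 5.87 on the ES arrays. The MEF arrays lay above all others, while NPC and ES arrays overlapped. Erbb2 was 2.03-fold higher in MEF than in ES cells (1.02, SE 0.186, limma adjusted p = 0.00148), a call at the edge of the minimum that ended without MEF 1 or without ES 3 (0.98 each) and with a pseudocount of 64 (0.66). MEF minus NPC was 0.73 (limma adjusted p = 0.0121), under the minimum, which it passed at the deposited scaling (1.43) and with median centring (1.09). NPC minus ES was 0.29 (limma adjusted p = 0.19).

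Egfr and Erbb2 are the receptors that were called higher in MEF than in ES cells, and the sequences before their starts are shown for what they share. Both are on chromosome 11 in RefSeq's GRCm38.p6 table, which held 5 of the 9 measured members, and each run is the 250 bases before the gene's start on the plus strand, chr11:16751953-16752202 for Egfr and chr11:98412234-98412483 for Erbb2. Capitals mark matches, on either strand, to the TCC repeat TCCTCC or the GC box GGGCGG, motifs picked after the sequences were seen.
Egfr: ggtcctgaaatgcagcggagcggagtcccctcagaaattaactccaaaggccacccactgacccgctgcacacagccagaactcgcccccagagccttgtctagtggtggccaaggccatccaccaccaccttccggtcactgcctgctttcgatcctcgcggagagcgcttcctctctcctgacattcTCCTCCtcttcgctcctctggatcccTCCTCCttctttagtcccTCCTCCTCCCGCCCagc
Erbb2: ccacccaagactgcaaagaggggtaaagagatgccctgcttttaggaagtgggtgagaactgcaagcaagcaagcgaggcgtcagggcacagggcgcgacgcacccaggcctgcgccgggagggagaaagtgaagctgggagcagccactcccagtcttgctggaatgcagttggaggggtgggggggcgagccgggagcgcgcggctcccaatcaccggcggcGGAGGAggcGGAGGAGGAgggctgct
The Egfr window held 4 TCC repeats, 2 of them overlapping, and 1 GC box that overlaps the last of them by a base, all in its downstream part. The Erbb2 window held 3 TCC repeats, read there as GGAGGA with 2 of them overlapping, and no GC box. At least 1 TCC repeat was in 29.2% of the 32851 windows of this length in the table and at least 1 GC box in 32.7%. Neither window held the TATA box TATAAA or the AP-1 motif TGANTCA, which 12.4% and 6.75% of windows held. GC content was 60.8% for Egfr and 66.0% for Erbb2, with a median of 52.4% over the windows. Among the other members in the table, Erbb4 had 1 TCC repeat, and Tgfa and Btc none. A match of letters is a description of the sequence and no evidence that a factor binds it.

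Erbb3 encodes the receptor with the impaired kinase, and its order was the reverse of that of Egfr. Its brightest probe set was at 5.71 and 5.94 on the MEF arrays, 5.00, 4.78 and 5.03 on the NPC arrays, and 7.62, 7.75 and 7.89 on the ES arrays. The groups did not overlap, and ES cells stood well above the others. Erbb3 was 7.04-fold lower in NPC than in ES cells (-2.82, SE 0.155, limma adjusted p = 7.42e-07) and 3.81-fold lower in MEF than in ES cells (-1.93, SE 0.173, limma adjusted p = 1.76e-05). MEF minus NPC was 0.89 (limma adjusted p = 0.00301), short of the minimum. It passed with a pseudocount of 1 (1.42), at the deposited scaling (1.31) and without MEF 1. The second Erbb3 probe set, 1452482_at, had group means of 4.16 in MEF, 4.11 in NPC and 4.30 in ES cells and was called in no comparison.

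Epithelial markers moved with Erbb3. Of 7 such genes, 5 were called lower and none higher in NPC against ES cells, and 4 were lower and 2 higher (Krt19 and Krt14) in MEF than in ES cells. Their summed intensity was 452 to 476 on MEF arrays, 55.9 to 87.7 on NPC arrays and 4660 to 5020 on ES arrays. In ES cells Epcam and Cdh1 were at 10.70 and 11.05, and Krt8, Krt18 and Krt19 at 8.56, 9.41 and 6.25. Krt5 and Krt14, of the same list, were at 4.95 and 4.32 there, under the median of all genes. Neural crest and oligodendrocyte lineage cells, where Erbb3 is known to act, were not evident by Sox10, their defining factor, at 5.31 in MEF, 5.36 in NPC and 5.32 in ES cells. Of the other 4 genes in that marker list, S100b was 3.85-fold higher, and Pdgfra 2.82-fold and Mbp 3.79-fold lower, in NPC than in ES cells. In MEF against ES cells, Pdgfra (2.20) and Cspg4 (2.96) rose and none fell. The list summed to 719 to 753 on MEF arrays, 133 to 196 on NPC arrays and 191 to 213 on ES arrays. The part of these cell types in the Erbb3 result was not tested.

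Erbb4 encodes a neuregulin receptor of neural and cardiac cells. It was near the bottom of the signal range on every array, at 4.24 and 4.09 in MEF, 4.63, 4.04 and 4.59 in NPC, and 4.04, 4.10 and 4.07 in ES cells. All groups overlapped, and none of its differences was called (NPC minus ES 0.35, limma adjusted p = 0.11). Without detection calls, such values do not tell a low level from none. Erbb4, Tgfa, Btc and Nrg1 lay under the median of all genes in every group (6.16 in MEF, 5.90 in NPC and 6.13 in ES cells) and are called dim here.

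Hbegf encodes heparin-binding EGF, a ligand of the EGF receptor and ErbB4. Its brightest probe set was at 10.92 and 11.07 on the MEF arrays, 7.95, 6.60 and 6.62 on the NPC arrays, and 8.25, 8.36 and 8.31 on the ES arrays. MEF stood far above the other groups, and NPC 1 lay closer to the ES arrays than to its own group. Hbegf was 15.4-fold higher in MEF than in NPC (3.94, SE 0.349, limma adjusted p = 2.45e-05) and 6.45-fold higher in MEF than in ES cells (2.69, SE 0.349, limma adjusted p = 0.000184). It was 2.38-fold lower in NPC than in ES cells (-1.25, SE 0.312, limma adjusted p = 0.00878), a difference of -1.70 without NPC 1, -1.02 without NPC 2 and -0.98, no longer called, with a pseudocount of 64.

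The second Hbegf probe set, 1418349_at, kept the order, at 9.98 and 10.04 in MEF, 6.97, 6.26 and 5.88 in NPC, and 7.30, 7.25 and 7.32 in ES cells. Its MEF minus ES difference was 2.72 and its MEF minus NPC difference 3.64, both called, while its NPC minus ES difference of -0.92 did not reach the minimum. ES cells had been grown on MEF feeders. As deposited, the intensity of the brightest Hbegf probe set was 3020 and 3220 on the MEF arrays and 294, 283 and 221 on the ES arrays. The fibroblast markers summed to 20000 to 20300 on MEF arrays and 214 to 231 on ES arrays. Those sums are of normalized intensities, so their scale is not that of the deposited values. The part of feeder RNA in the ES level was not tested.

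Ereg encodes epiregulin, a ligand of the EGF receptor and ErbB4, and had a single probe set. It was at 8.08 and 8.15 on the MEF arrays, 4.10, 4.49 and 4.18 on the NPC arrays, and 4.88, 5.08 and 4.99 on the ES arrays. The MEF arrays stood apart, with the other groups close to the floor. Ereg was 14.5-fold higher in MEF than in NPC (3.86, SE 0.183, limma adjusted p = 5.32e-07) and 8.75-fold higher in MEF than in ES cells (3.13, SE 0.183, limma adjusted p = 1.3e-06). The NPC and ES arrays did not overlap either, at a difference of -0.73 (limma adjusted p = 0.00509), under the minimum. With a pseudocount of 1 it was -2.17 and called.

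Nrg1 encodes neuregulin 1, the ligand of ErbB3 and ErbB4, and had a single probe set. It was at 5.84 and 5.95 on the MEF arrays, 4.29, 4.37 and 4.22 on the NPC arrays, and 4.76, 4.24 and 4.70 on the ES arrays. NPC and ES arrays overlapped, and MEF lay above both though under the median of all genes. Nrg1 was 3.03-fold higher in MEF than in NPC (1.60, SE 0.186, limma adjusted p = 0.000133) and 2.52-fold higher in MEF than in ES cells (1.33, SE 0.186, limma adjusted p = 0.000296). With a pseudocount of 64, both fell under the minimum (0.67 and 0.59). The probe set's deposited intensity was 55.9 and 64.9 in MEF and at most 11.2 on any other array. Probes of one set do not separate the many isoforms of Nrg1.

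Tgfa and Btc, which encode transforming growth factor alpha and betacellulin, did not pass in any comparison. Tgfa was at 5.31 and 5.72 in MEF, 5.56, 5.57 and 5.53 in NPC, and 5.15, 5.26 and 5.52 in ES cells, and its largest difference in size was 0.24 for NPC minus ES (limma adjusted p = 0.307). Btc was at 5.08 and 5.16 in MEF, 4.49, 4.96 and 4.66 in NPC, and 4.82, 5.02 and 4.16 in ES cells, with MEF minus ES at 0.46 (limma adjusted p = 0.194). Their further probe sets, 1450421_at and 1421942_s_at for Tgfa and 1421161_at for Btc, had group means from 4.42 to 5.64 and were not called either. A p that misses the threshold does not show that the levels of these dim genes were equal.

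Macrophage markers moved with the ligands that were high in MEF. Of 6 such genes, 5 were higher in MEF than in ES cells and 5 higher in MEF than in NPC, and between NPC and ES cells none was called. Lyz2 was at 8.99 in MEF, 4.79 in NPC and 5.00 in ES cells, and Ptprc at 6.21, 4.32 and 4.12 in the same order. The list summed to 942 to 962 on MEF arrays, 89.3 to 105 on NPC arrays and 68.0 to 108 on ES arrays. Of the epithelial list, Krt14 was at 5.89, Krt19 at 7.92 and Epcam at 4.14 in MEF. Endothelial markers summed to 58.5 to 68.8 on MEF arrays, 26.7 to 50.8 on NPC arrays and 157 to 176 on ES arrays, and all 4 lay under the median of all genes in MEF. Whether macrophage, epithelial or endothelial cells were in the MEF cultures, and any part of theirs in Hbegf, Ereg and Nrg1, was not tested.

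In NPC, the array with the highest Egfr and Hbegf was NPC 1. Neuron markers gave 3 higher and 2 lower of 6 in NPC over ES cells and summed to 813 to 840 on MEF arrays, 2050 to 2480 on NPC arrays and 3140 to 3260 on ES arrays. Astrocyte markers gave 2 higher of 4 and summed to 47.7 to 54.1 on MEF arrays, 125 to 228 on NPC arrays and 35.7 to 48.3 on ES arrays, with the defining Gfap at 5.21 in MEF, 4.98 in NPC and 5.18 in ES cells, each under the median of all genes. Their part in the Egfr level was not tested.

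For each member called at least once, the 3 genes with the most similar profile were taken from the other 18192 by the root mean square difference over the 8 arrays, each gene being centred on the mean of its group means. For Egfr these were Tmem176b (0.362), Gas1 (0.366) and Fbn2 (0.449), in log2 units. Gas1, for example, was at 9.78 in MEF, 11.68 in NPC and 6.58 in ES cells. Erbb3 was nearest to Galt (0.134), Orc1 (0.141) and Pgap6 (0.173), and Erbb2 to C230034O21Rik (0.0854), Sec13 (0.0881) and Gnb1 (0.0886). Hbegf was nearest to Gpc4 (0.288), Lpl (0.305) and Cyp7b1 (0.314), and Ereg to Ctss (0.154), Gpnmb (0.173) and Lgals3bp (0.185). Nrg1 was nearest to Myocd (0.111), Hoxb4 (0.125) and Nipal4 (0.132). Small values come easily to genes whose levels differ little between groups.

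Around the receptors, 99 of 109 listed pathway genes were measured. Of these, 35 were higher and 13 lower in NPC than in ES cells, 38 higher and 9 lower in MEF than in ES cells, and 20 higher and 15 lower in MEF than in NPC. Their median difference was 0.54, 0.59 and -0.02, against -0.05, -0.04 and -0.01 over all genes. Of all genes, 10.0% were called higher and 12.9% lower for NPC minus ES. For MEF minus ES these shares were 12.2% and 12.8%, and for MEF minus NPC 10.5% and 7.95%. They are also the shares to set beside the list counts below. The lists gave different directions, and the shares of each list called are shown in the plot of pathway lists.

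**Figure D4:**
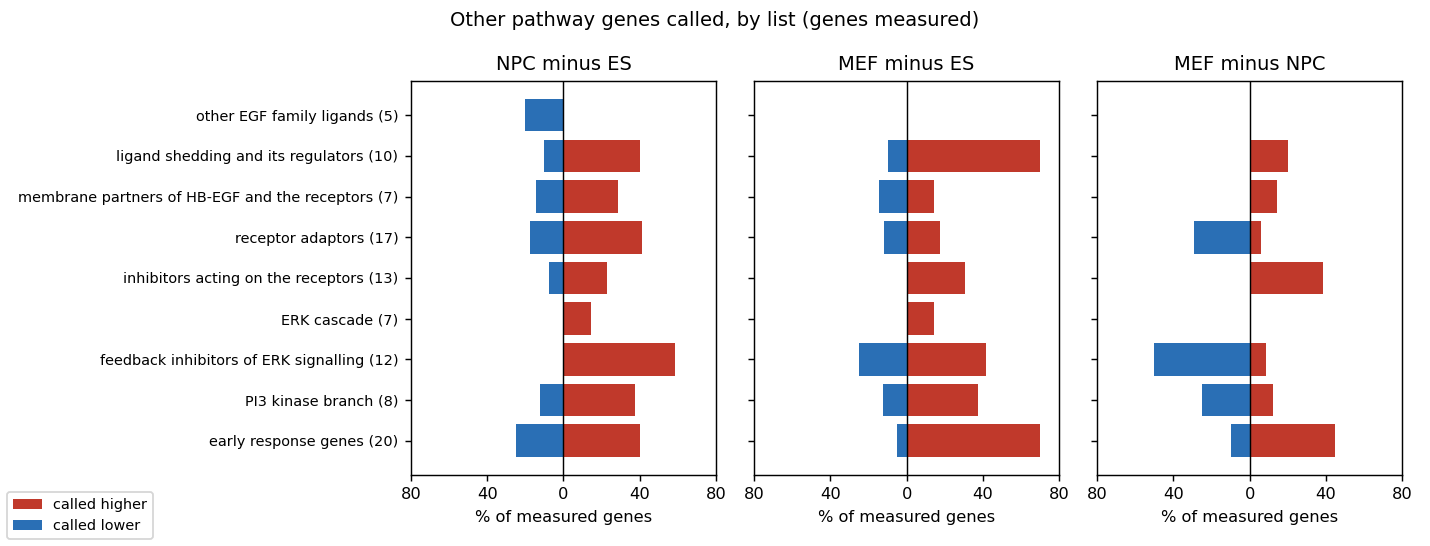
Share of the measured genes of each pathway list called higher (right, red) or lower (left, blue) in the first-named group, for each comparison, with the number measured in brackets. Feedback inhibitors of ERK signalling are called higher in 7 of 12 cases for NPC minus ES and lower in 6 of 12 for MEF minus NPC. Of all genes, 10.0% are called higher for NPC minus ES and 7.95% lower for MEF minus NPC.

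Ligands are cut from their precursors by ADAM proteases, and the list of shedding genes held regulators too, among them the inhibitor gene Timp3. Of 10 genes measured, 4 (Adam9, Adam10, Adam12 and Bace1) were higher and 1 (Rhbdf2) lower in NPC than in ES cells. That call of Bace1 (1.39) was lost with probe sets averaged (0.86) and without probe sets whose suffix marks shared sequence (0.77). In MEF over ES cells 7 (Adam9, Adam10, Adam12, Adam19, Bace1, Rhbdf1 and Timp3) were higher and 1 (Rhbdf2) lower. Adam12 was at 10.22 in MEF, 10.85 in NPC and 4.73 in ES cells, 69.3-fold higher in NPC and 44.9-fold higher in MEF than in ES cells. Adam10, a sheddase of EGF and betacellulin, rose by 1.92 in NPC and 1.90 in MEF over ES cells. Adam17, the main sheddase of most other EGF receptor ligands, was not called (NPC minus ES 0.63, MEF minus ES 0.36).

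Rhbdf2 encodes a partner that helps ADAM17 reach the cell surface. Rhbdf2 went the other way, 9.52-fold lower in NPC and 3.32-fold lower in MEF than in ES cells. Rhbdf1, of the same list, did not fall with Rhbdf2. For Rhbdf1, MEF minus ES was 1.28 and called, and NPC minus ES was 0.98 (limma adjusted p = 4.27e-05), under the minimum. Timp3, an inhibitor of ADAM proteases, was at 9.43 in MEF, 5.30 in NPC and 5.44 in ES cells, 17.5-fold higher in MEF than in NPC (limma adjusted p = 0.00116). On the NPC arrays it was at 7.04, 4.18 and 4.68, and the log2 difference of 4.13 became 5.00 without NPC 1. Among 7 membrane partners, Cd44, a hyaluronan receptor with forms that bind HB-EGF through heparan sulfate, was 43.7-fold higher in MEF and 9.26-fold higher in NPC than in ES cells, and Cd9, a tetraspanin partner of HB-EGF, was 2.65-fold lower in NPC than in ES cells.

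The remaining 5 ligand genes of the family, Egf, Epgn, Nrg2, Nrg3 and Nrg4, had group means of 4.27 to 5.93. Nrg4 was the one called, lower in NPC than in ES cells at -1.17 (limma adjusted p = 0.000106). That call was lost with probe sets averaged (-0.98) and with a pseudocount of 64 (-0.54).

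Inhibitors that act on the receptors were higher in MEF than in NPC in 5 of 13 cases and lower in none, and higher than in ES cells in 4 of 13. Of the 5, Cblb, a ubiquitin ligase of receptors, was at the minimum and lost its call without MEF 1 (0.99) or NPC 2 (0.89). Errfi1, the induced inhibitor that binds the EGF receptor kinase, was at 10.36 in MEF, 7.08 in NPC and 8.21 in ES cells, 9.7-fold higher in MEF than in NPC (limma adjusted p = 5.96e-07). In NPC it was 2.18-fold lower than in ES cells, a call lost with a pseudocount of 64 (-0.90), and its order of means was that of Hbegf. Sh3kbp1, an adaptor of receptor endocytosis, was 7.39-fold higher in MEF than in NPC and 5.28-fold higher in NPC than in ES cells. Lrig1, a negative regulator of ErbB receptors, was 4.81-fold higher in NPC than in ES cells, but the difference was -0.07 without probe sets whose suffix marks shared sequence.

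Among feedback inhibitors of ERK signalling, Spry1, Spry2 and Spry4 were highest in NPC. Spry3 was near the floor and not called in any comparison, at 4.49 in MEF, 4.09 in NPC and 4.44 in ES cells. Of 12 in the list, 7 were higher in NPC than in ES cells and none lower, and 6 were lower and 1 higher in MEF than in NPC. Spry1 was at 8.77 in MEF, 10.82 in NPC and 8.04 in ES cells, Spry2 at 7.95, 10.70 and 9.38, and Spry4 at 6.66, 9.70 and 8.27. These Sprouty genes were 4.13-fold, 6.75-fold and 8.27-fold lower in MEF than in NPC. The other 3 called lower, Dusp6, Spred1 and Spred2, lost that call with median centring (-0.93, -0.44 and -0.55) and at the deposited scaling, and Spred1 (-1.03) also without MEF 1 (-0.99) or NPC 1 (-0.93). The NPC minus ES call of Spred1 (1.07) was lost without NPC 1 (0.98). Dusp6, the ERK phosphatase, was 4.42-fold higher in NPC than in ES cells (limma adjusted p = 0.000151). Dusp5 was the exception, 6.61-fold higher in MEF than in NPC (limma adjusted p = 0.0075), and rested in part on NPC 1: it was 3.81-fold without that array, and the call was lost without MEF 1 (2.68, limma adjusted p = 0.0546). Both FGF and EGF receptors feed this pathway, and NPC medium held FGF2 and the factor that the labels spell EGF2. The parts of these added factors cannot be told apart.

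**Figure D5:**
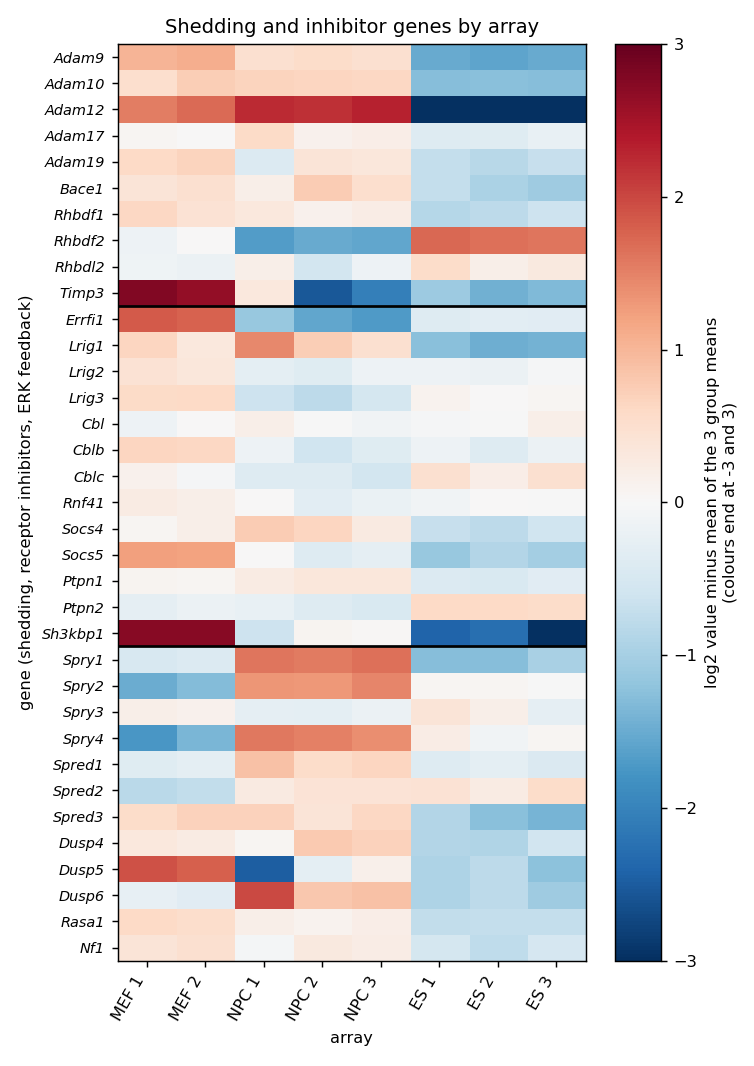
Each gene's log2 value on each array minus the mean of its 3 group means, for shedding genes (top), inhibitors acting on the receptors (middle) and feedback inhibitors of ERK signalling (bottom), with colours ending at -3 and 3. Errfi1 is high on the MEF arrays, Spry1, Spry2 and Spry4 on the NPC arrays, and Rhbdf2 on the ES arrays.

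Early response genes, which growth factors induce, were higher in MEF than in ES cells in 14 of 20 cases and lower in 1, and higher in MEF than in NPC in 9 and lower in 2. Fosl1, of the AP-1 factor, was 26.6-fold and Plaur, the urokinase receptor, 26.2-fold higher in MEF than in NPC. Ccn1, a matricellular protein, was 111-fold higher there, by a probe set whose suffix marks shared sequence. Without such probe sets its MEF minus ES difference went from 4.01 to 3.57. Its NPC minus ES call (-2.78) was then lost (-0.91). Etv5, an ETS factor induced by ERK, was 13.3-fold lower in MEF than in NPC. In NPC over ES cells 8 were higher and 5 lower, with Jun 10.2-fold higher and Plaur 3.92-fold lower. Myc was at 9.68 in MEF, 10.16 in NPC and 6.15 in ES cells. Several of these calls were lost when single arrays were left out, in some cases with little change in the difference itself. For NPC minus ES, that of Egr1 (1.72) was lost without NPC 1 (0.81) and without either MEF or any ES array, that of Dusp1 (-1.33) without NPC 1 (-0.93), and that of Junb (-1.11) without NPC 2 (-0.80). That of Ier2 (-1.54) was lost without NPC 2 (-1.22), NPC 3 (-1.23) or ES 2 (-1.49) and was -2.17 without NPC 1. That of Egr3 (1.72) was lost without ES 1 (1.66) or ES 3 (1.67) and was 1.08 without NPC 1. For MEF minus ES, that of Egr1 (2.04) was lost without any 1 MEF or ES array (1.98 to 2.09), and that of Fosb (1.09) without MEF 2 (0.94) or ES 2 (0.91). For MEF minus NPC, that of Egr3 (1.90) was lost without MEF 1 (1.88), MEF 2 (1.93) or NPC 2 (1.78) and was 2.54 without NPC 1, and that of Etv4 (-1.01) without MEF 2 (-0.95), NPC 2 (-0.98) or NPC 3 (-0.95).

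Receptor adaptors were higher in NPC than in ES cells in 7 of 17 cases and lower in 3. Of the 7, Gab2 (3.87) lost its call without probe sets whose suffix marks shared sequence (0.12). Ptpn11 (1.44) and Nck2 (1.30) lost theirs with probe sets averaged (0.49 and 0.85). Vav3 was 27.7-fold higher in NPC than in ES cells and 18.1-fold lower in MEF than in NPC. Grb7, an adaptor that binds ErbB2 and ErbB3, had its highest level in ES cells, as Erbb3 did, being 12.9-fold lower in NPC and 14.7-fold lower in MEF than in ES cells. Gab1, a docking protein, was 3.93-fold lower in NPC and 13.8-fold lower in MEF than in ES cells.

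Of the 8 PI3 kinase branch genes measured, 3 were higher and 1 lower in NPC than in ES cells, with Pik3r1 and Pik3r3, regulatory subunits, 7.75-fold and 7.51-fold higher. The lower gene, the catalytic subunit Pik3cb (-1.03), lost that call without NPC 2 (-0.99) or ES 3 (-0.96) and under each other scaling. In MEF over ES cells 3 were higher and 1 lower. The kinase gene Akt1 was 5.7-fold higher (2.51), a call kept at 1.29 with its probe sets averaged. The other 3 calls were each lost when single arrays were left out. That of Pik3r1 (1.09) was lost without MEF 1 (1.06), MEF 2 (1.12) or ES 2 (0.99), with little change in the difference. That of Pik3r3 (1.15) was lost without ES 1, and that of Pik3cb (-1.05) without MEF 1 (-0.99) or ES 3 (-0.98). In MEF over NPC 1, Akt1, was higher and 2, Pik3r1 and Pik3r3, were lower. The calls of Pik3r1 and Pik3r3 were lost at the deposited scaling (-0.94 and -0.97). Those of Akt1 for MEF minus NPC (1.26) and NPC minus ES (1.26) were lost with probe sets averaged (0.74 and 0.55). Of 7 ERK cascade genes, Rps6ka3, a kinase downstream of ERK, was higher in NPC (2.05) and in MEF (1.44) than in ES cells, which no longer held with its probe sets averaged (0.80 and 0.87). The other 6 were not called in any comparison.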

How the data were processed

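Intensities were those the authors deposited, 1 linear value per probe set and array for 45101 probe sets on 8 arrays. The submitters' processing notes name GCOS 1.4, whose background and scaling settings are not given in the sources used here. After 64 control probe sets were left out, 34945 had a single gene in the platform annotation, 932 several and 9160 none. The deposited intensities were put on the log2(intensity + 16) scale with quantile normalization, and the brightest probe set stood for each of 18193 genes. All groups entered a single linear model in limma 3.58.1 (R 4.3.3) with a variance trend, and p-values were adjusted by Benjamini-Hochberg over all genes. The same model was fitted on all single-gene probe sets. The number of arrays limits the precision, and no depth exists for this assay.

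The members, lists, markers and tests were chosen with earlier results of these data known. The text names members, markers, and up to 3 called genes per direction, list and comparison. Added after their values were seen were Adam17, Adam19, Bace1, Rhbdf1, Cblb, Spry3, Egr1, Egr3, Fosb, Junb, Dusp1, Nck2 and Spred1. So were Spred2 and Dusp6 in MEF against NPC, and Ptpn11 in NPC against ES cells. The model was tested on simulated data. No pair of arrays held identical values. Alternatives were other scalings, pseudocounts, filters, probe set rules, variance models, thresholds, the replicate block and leaving out each array.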

Additional observations from a re-analysis of the deposited data

How the results depend on the processing

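Of 13 member differences called, 13 kept their call and direction with median centring, the 2% trimmed mean scaling, no variance trend and array weights. The same held without the dimmest genes and without probe sets of the suffixes _x_at, _s_at and _a_at. It also held in fits of the 2 groups alone and at an adjusted p under 0.01. Replicate numbers did not pair the arrays, since deviations from group means correlated at -0.02 to 0.023 between arrays of the same number, and the replicate block left 13 called, with 6, 4 and 3 members called for MEF minus ES, MEF minus NPC and NPC minus ES. At the deposited scaling 12 kept their call, and with a pseudocount of 64, 9. The other exceptions stand beside the genes. A minimum of 2 left 3 members called for MEF minus ES and 2 for MEF minus NPC. It left 26, 18 and 19 other pathway genes called for MEF minus ES, MEF minus NPC and NPC minus ES, and 1560, 1247 and 1509 of all genes. With no minimum, 59 pathway genes were called for MEF minus NPC, and 8447, 7145 and 8530 of all genes. A pseudocount of 64 left 2948, 2110 and 2638 of all genes, and the deposited scaling gave 5101 for MEF minus NPC, against 4554, 3359 and 4173 in the model reported. The deposited scaling moved the median of all genes by 0.36 for MEF minus ES and 0.44 for MEF minus NPC. It raised the share of calls that were higher in MEF to 79.4% and 87.6% (65.1% and 74.2% with median centring), against 48.9% and 56.9%. Without each array in turn, 5 to 6 members were called for MEF minus ES, 4 to 5 for MEF minus NPC and 3 in every case for NPC minus ES. Without probe sets of the suffixes _x_at, _s_at and _a_at, Gab2 turned to 0.28 for MEF minus NPC and Lrig1 to -0.07 for NPC minus ES, neither called. Of 27 member differences under 23 settings, 12 changes of sign occurred, each in Tgfa, Btc or Erbb4 and called in neither setting. The causes of these changes were not tested. With no detection calls, levels near the floor limit what Erbb4, Btc, Tgfa and the lower groups of Ereg and Nrg1 can show.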
